A study of Mus musculus with 3 samples.

Results

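The genes examined were the 10 that code for the gastric proton pump and for the transporters, the chloride channel protein, the enzyme and the gastrin receptor that work with it in acid secretion, namely Atp4a, Atp4b, Kcnq1, Kcne2, Kcnj15, Clic6, Slc12a2, Slc4a2, Car2 and Cckbr. They were taken by gene symbol from the platform's gene table, with every probe set that named 1 gene, which gave 16 probe sets out of 34958 and 10 genes out of 18194. RNA came from mouse stomach epithelium on Affymetrix mouse arrays, 1 array per lineage, from parietal, zymogenic and pit cells that had been cut out singly by laser-capture microdissection. Parietal cells (acid-secreting, recognised by the lectin DBA and by autofluorescence) were dissected within the pit zone. Zymogenic cells (the pepsinogen-secreting chief cells, E-cadherin-positive, with neither GSII nor DBA lectin binding) were taken from the base zone of units on different slides, after the parietal cells there had been removed. Pit cells (surface-region mucous cells, E-cadherin-positive and DBA-negative) were taken from the same units as the parietal cells. Each array held a pool of 20 ng from 3000 to 5000 cells of 4 to 5 mice. No strain, genotype, age or treatment of the mice is given in the sources used. The design text calls the material total RNA while the molecule label says nuclear RNA.

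Parietal cells secrete hydrochloric acid through an H+/K+-ATPase, a P-type pump of a catalytic alpha subunit and a glycosylated beta subunit that exchanges cytosolic protons for luminal potassium. Potassium channels in the apical membrane return the potassium to the lumen, chloride leaves beside it, and the bicarbonate left behind by proton formation leaves across the basolateral membrane in exchange for chloride. Gastrin, histamine and acetylcholine start secretion, and somatostatin stops it.

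The values were intensities on a linear scale, and they were read against a detection floor of 23.3, set from 80 probe sets for olfactory and vomeronasal receptors (their 95th percentile, on the array where it was highest). For log2 differences, lower values were set to the floor, so that a fold against such a value is a lower bound, written as "at least". With 1 array per lineage there was no replicate error and no test, and every difference describes these 3 arrays. As a gauge of measurement scatter alone, the array-to-array log2 ratios that separate probe sets gave for the same gene scattered with an SD of 0.479, over 785 combinations of gene and array pair. In pooled tissue, fewer cells of a type and less RNA per cell cannot be told apart. For zymogenic cells, the lineage and its separate slides cannot be told apart either.

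Among the 1186 genes that every array measured above the floor, parietal minus zymogenic had a median of 0.64 on the log2 scale, parietal minus pit one of 0.29 and zymogenic minus pit one of -0.21, and member differences are also given relative to these shifts where they alter a reading. Of 10 parietal markers other than the genes examined, 3 were above the floor in parietal cells (Esrrb, Ezr and Kcnj16), 0 in zymogenic cells and 1 in pit cells. All 8 pit markers were above the floor in parietal cells, 1 was in zymogenic cells and 8 were in pit cells. Their intensities summed to 20316, 139 and 14532 in that order. Gkn1 and Gkn2 made up most of the parietal and pit sums, with 10493 and 7987 in parietal cells and 8307 and 2723 in pit cells. Of the 8, 3 passed 2-fold in favour of parietal over pit cells (Gkn2, Muc1 and Tff2). Another 3 passed it in favour of pit cells (Muc5ac, Foxq1 and Krt20). Zymogenic markers summed to 544 in parietal cells, 15239 in zymogenic cells and 136 in pit cells, with 4, 6 and 3 of 7 above the floor. Chia1 and Pgc made up most of the zymogenic sum, with 9916 and 4593. Pga5, Ctrb1 and Gkn3 were not highest in zymogenic cells. Pga5 read 47.6 in parietal and 30.9 in zymogenic cells, and Ctrb1 47.1 in pit and 23.4 in zymogenic cells. Gkn3 was above the floor in pit cells alone, at 28.7. Endocrine markers, with 5 of 8 above the floor on the zymogenic array and 0 on the parietal array, summed to 47.1 in parietal cells, 963 in zymogenic cells and 73.4 in pit cells. Fibroblast markers summed to 273 in parietal cells, 123 in zymogenic cells and 70.2 in pit cells. Of 4, 3, 2 and 1 were above the floor in that order. Col1a2 and Col3a1 ran in the order of Atp4b and Clic6, and both passed 2-fold in parietal cells against each other array. That was 2 of 4, beside 1.7% of all genes and 7.49% of those above the floor on at least 1 array. Col1a1 was above the floor in parietal cells alone, at 33.7, and Dcn was under it throughout. The part of these other cells in the results below was not tested.

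**Figure D1:**
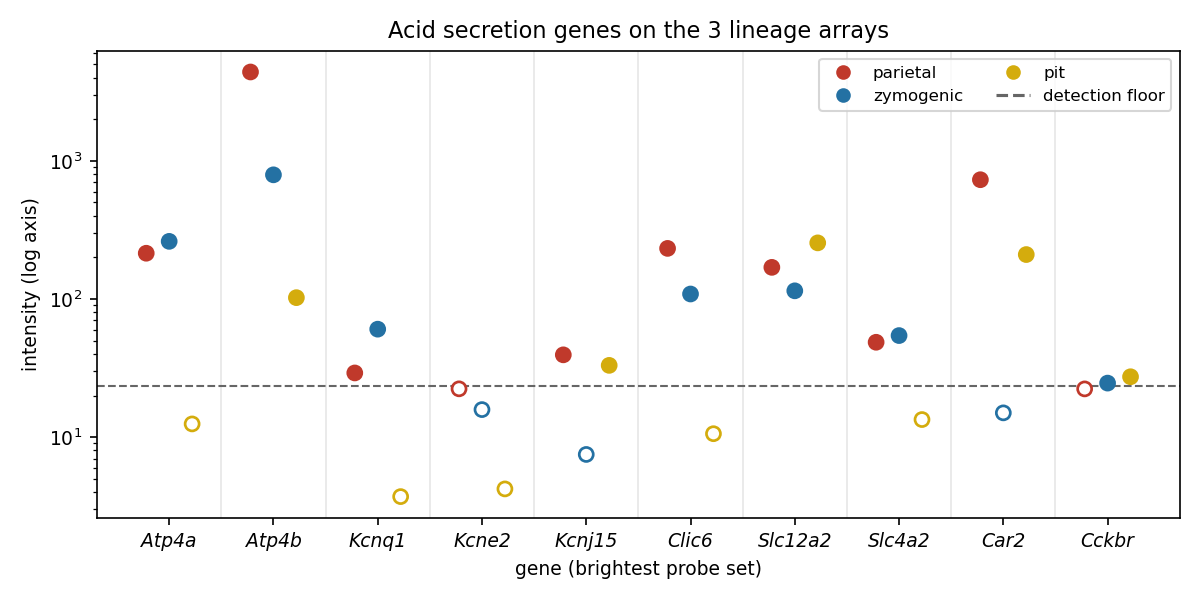
Intensity (log axis) of each acid secretion gene, by its brightest probe set, on the parietal, zymogenic and pit arrays, 1 array each. Open circles lie at or under the detection floor of 23.3 (dashed line). Atp4a, Kcnq1, Clic6 and Slc4a2 lay under the floor on the pit array alone, Kcnj15 and Car2 on the zymogenic array alone, Cckbr on the parietal array alone, and Kcne2 on all 3. Levels compare arrays within a gene, not genes with each other.

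The 10 genes did not share 1 pattern. On the parietal array 3 of 10, Atp4b, Clic6 and Car2, exceeded both other arrays by 2-fold or more, against 1.7% of all 18194 genes and 7.49% of the 4138 genes above the floor on at least 1 array. This count was 1 after quantile normalization and 5 after scaling to the BioB and BioC controls, which are spiked in at hybridisation. The parietal array held 0 members 2-fold below both others, against 0.0879% and 0.387%. On the pit array 4 of 10, Atp4a, Atp4b, Slc4a2 and Clic6, lay below both other arrays by as much, where the background was 0.594% of all genes and 2.61% of those above the floor on at least 1 array. On the zymogenic array Kcnq1 was at least 2-fold above both others (background 1.57% and 6.91%) and Car2 at least 2-fold below both (background 2.52% and 11.1%). The pit array held 0 members at least 2-fold above both others, against a background of 1.31% and 5.78%.

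Between pairs of arrays, parietal over pit gave 5 members higher by 2-fold or more (Atp4a, Atp4b, Slc4a2, Clic6 and Car2) and 0 lower, beside 2.73% of all genes higher and 1.46% lower. Zymogenic over pit likewise gave 5 members higher (Atp4a, Atp4b, Kcnq1, Slc4a2 and Clic6) and 2 lower (Car2 and Slc12a2), beside 2.35% of all genes higher and 4.24% lower. Parietal over zymogenic gave 3 higher (Atp4b, Clic6 and Car2) and 1 lower (Kcnq1), beside 4.74% and 1.74%. Among genes above the floor on at least 1 array these backgrounds were 12.0% and 6.4% for parietal against pit, 10.3% and 18.7% for zymogenic against pit, and 20.9% and 7.64% for parietal against zymogenic. The median log2 difference over the 10 members was 0.28 for parietal minus zymogenic, 0.70 for parietal minus pit and 0.61 for zymogenic minus pit. Over all genes each of these medians was 0, and over genes above the floor on at least 1 array they were 0.14, 0 and -0.001.

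**Figure D2:**
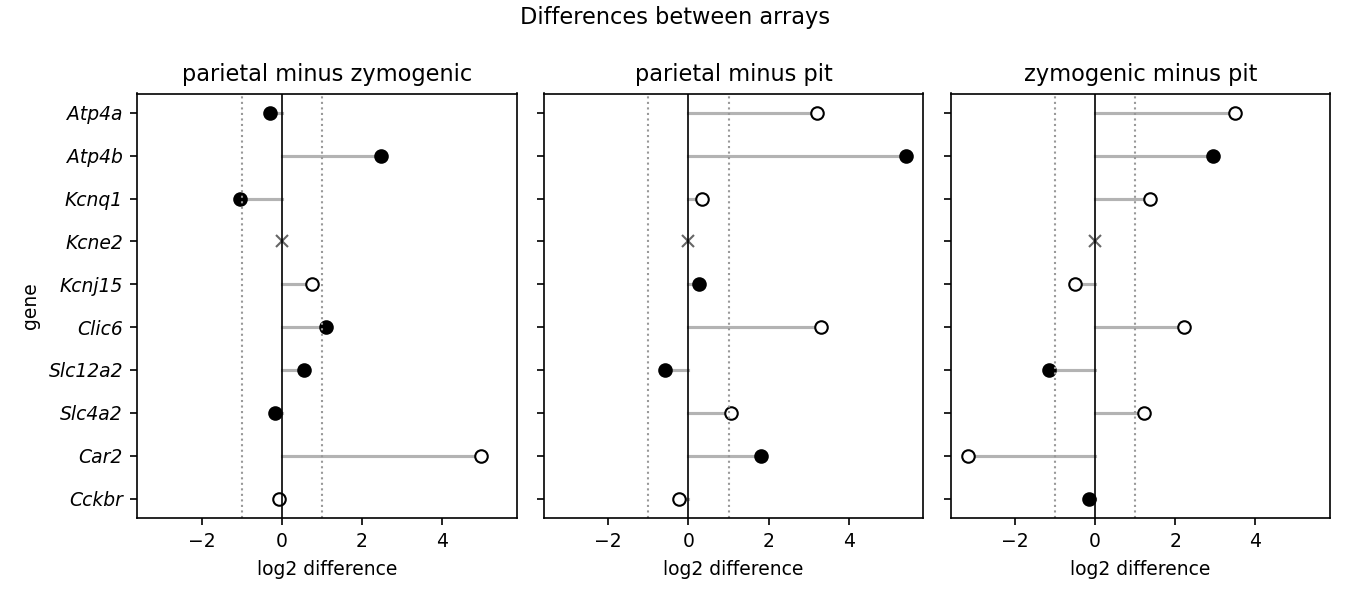
Log2 difference (horizontal axis) of each acid secretion gene for parietal minus zymogenic, parietal minus pit and zymogenic minus pit, from floored intensities of 1 array per lineage. Filled circles have both arrays above the floor, open circles have 1 array at the floor and are lower bounds on the size, crosses have both at the floor, and dotted lines mark 2-fold. Atp4b, at 5.43, has the largest value for parietal minus pit among the 10, and Car2, at -3.17, the lowest for zymogenic minus pit.

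The pump subunits were compared first. Atp4b, the beta subunit, which carries the pump to the membrane, had an intensity of 4402 in parietal cells, 793 in zymogenic cells and 102 in pit cells. It was above the floor on all 3 arrays, highest in parietal and lowest in pit cells, with each step larger than the probe set scatter. The parietal value was 5.55-fold above the zymogenic one and 43.0-fold above the pit one, and the zymogenic value was 7.75-fold above the pit one. After quantile normalization its parietal minus zymogenic log2 difference was 0.96 in place of 2.47, under 2-fold. As deposited, Actb (beta-actin) and Gapdh also differed in this comparison, by 3.045 and 2.052, and in parietal minus pit by -0.28 and 1.095. The part of RNA quality in these differences was not tested. The parietal over pit ratio of Atp4b ranked 1 of 1984 genes above the floor on both arrays, its parietal over zymogenic ratio 59 of 1497, and its zymogenic over pit ratio 16 of 1277.

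Atp4a, the catalytic alpha subunit, which binds ATP and moves the ions, had an intensity of 214 in parietal cells, 261 in zymogenic cells and 12.5 in pit cells. It was thus slightly lower on the parietal than on the zymogenic array, by 1.22-fold (log2 -0.29, within the probe set scatter, and 0.95 after scaling to the BioB and BioC controls), and at least 9.22-fold and at least 11.2-fold higher on these 2 arrays than on the pit array, where it was under the floor. Relative to the median shift between the arrays, the parietal minus zymogenic difference of Atp4a was -0.925, and that of Atp4b was 1.83. Zymogenic minus pit was at least 3.49 on the log2 scale for Atp4a and 2.95 for Atp4b, so that both were higher in zymogenic cells, and the bound leaves the size for Atp4a unknown. Between the parietal and zymogenic arrays the log2 difference of Atp4b exceeded that of Atp4a by 2.76. Any factor that scales a whole array cancels in this comparison, and it was 2.12 after quantile normalization. Each subunit has 1 probe set that names it alone, so that no second probe set could be set beside either.

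Promoter windows from RefSeq (GRCm38.p6, 250 bases before to 50 after a transcript's start) were found for 5 of the 10 genes, with 1 window each for Atp4a, Kcnj15 and Cckbr and 2 each for Slc4a2 and Kcne2. Atp4b, Kcnq1, Clic6, Slc12a2 and Car2 had none in the table. Windows are shown of Atp4a and Slc4a2, which were under the floor on the pit array alone, and of Kcnj15, which was under it on the zymogenic array alone, so that genes of both patterns can be read side by side. Atp4a is at chr7:30711959-30712258, Slc4a2 (the first of its windows) at chr5:24424982-24425281 and Kcnj15 at chr16:95257308-95257607, all on the + strand. Capitals mark a match, on either strand, to the GATA site AGATAA or to the nuclear receptor half-site AGGTCA.
Atp4a: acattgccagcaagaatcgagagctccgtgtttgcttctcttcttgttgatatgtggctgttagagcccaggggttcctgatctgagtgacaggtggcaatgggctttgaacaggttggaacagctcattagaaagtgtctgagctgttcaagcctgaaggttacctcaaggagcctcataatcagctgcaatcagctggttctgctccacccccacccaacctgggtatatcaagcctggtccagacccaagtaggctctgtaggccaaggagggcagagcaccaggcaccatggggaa
Slc4a2: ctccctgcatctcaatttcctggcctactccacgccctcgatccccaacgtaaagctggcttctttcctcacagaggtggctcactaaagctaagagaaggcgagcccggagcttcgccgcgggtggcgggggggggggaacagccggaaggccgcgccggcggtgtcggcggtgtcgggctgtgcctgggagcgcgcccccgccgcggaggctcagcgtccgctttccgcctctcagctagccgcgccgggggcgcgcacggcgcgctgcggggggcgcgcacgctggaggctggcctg
Kcnj15: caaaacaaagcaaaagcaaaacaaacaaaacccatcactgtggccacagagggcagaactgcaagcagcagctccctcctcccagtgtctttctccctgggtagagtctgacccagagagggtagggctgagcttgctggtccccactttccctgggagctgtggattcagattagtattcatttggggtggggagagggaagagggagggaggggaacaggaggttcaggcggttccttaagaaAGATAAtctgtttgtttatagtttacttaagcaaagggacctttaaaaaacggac

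The Slc4a2 window was rich in CpG, with 37 CpG pairs and 72% G+C, whereas the Atp4a window had 2 CpG pairs and 52.7% G+C and the Kcnj15 window 2 and 49.7%. Over all 32851 windows the medians were 7 CpG pairs and 52.7% G+C. The Kcnj15 window held 1 AGATAA match, whose first base lay 5 bases before the start, and the Atp4a and Slc4a2 windows shown held none. AGATAA was present in 11.2% of all windows. AGGTCA was present in none of the windows shown and in 16.3% of all windows, and the second window of Slc4a2 held 2 matches.

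Potassium channels of the apical membrane gave low values. Kcnq1, the pore subunit of the channel that returns potassium to the lumen, had an intensity of 29.1 in parietal cells, 60.5 in zymogenic cells and 3.71 in pit cells. It was 2.07-fold lower on the parietal than on the zymogenic array (log2 -1.05, and -1.69 relative to the median shift), and at least 1.25-fold and at least 2.60-fold higher on these than on the pit array. With the arrays scaled by the BioB and BioC controls, the order turned and the parietal minus zymogenic value was 0.18.

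Kcne2, the small accessory subunit of the Kcnq1 channel in parietal cells, had an intensity of 22.4 in parietal cells, 15.8 in zymogenic cells and 4.22 in pit cells. It was under the floor on all 3 arrays, so that no fold is given. The parietal value was the closest of the 3 to the floor. After scaling to BioB and BioC, Kcne2 passed the floor, with parietal minus zymogenic and parietal minus pit log2 differences of at least 0.995 each. With the floor at the 90th percentile its parietal minus pit difference was at least 1.03.

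Kcnj15, an inward rectifier potassium channel of the parietal cell, had an intensity of 39.4 in parietal cells, 7.49 in zymogenic cells and 33.1 in pit cells. In contrast to Kcnq1, it was low on the zymogenic array and near-equal on the other 2 as deposited, with a parietal over pit ratio of 1.19 and at least 1.69-fold over the zymogenic array. After scaling to BioB and BioC, the parietal minus pit log2 difference of Kcnj15 was 1.49 in place of 0.25, over 2-fold. Its other 2 probe sets had intensities of 9.29 and 7.63 in parietal cells, 2.83 and 0.0085 in zymogenic cells, and 6.87 and 4.98 in pit cells. These kept the same order of arrays but lay under the floor throughout, and the mean over the 3 probe sets was under it as well.

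Chloride handling was represented by Clic6 and Slc12a2. Clic6, a chloride intracellular channel protein first described as parchorin in rabbit parietal cells, had an intensity of 232 in parietal cells, 109 in zymogenic cells and 10.6 in pit cells. It took the same order as Atp4b, with a parietal value 2.14-fold above the zymogenic and at least 9.996-fold above the pit array. Relative to the median shift, the parietal minus zymogenic log2 difference was 0.46 in place of 1.10, and after quantile normalization it was 0.39, within the probe set scatter. A second Clic6 probe set read 29.1 in parietal cells, 20.0 in zymogenic cells and 19.5 in pit cells, so that it too was highest on the parietal array, the only one where it passed the floor. The brighter probe set carries the name suffix for probes that may also match other transcripts, and by the second one alone the parietal minus pit difference was at least 0.33 on the log2 scale, under 2-fold.

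Slc12a2, the basolateral sodium, potassium and chloride cotransporter, had an intensity of 169 in parietal cells, 115 in zymogenic cells and 255 in pit cells. Of the members, it and Atp4b were above the floor on all 3 arrays, and it was highest on the pit array, 1.504-fold above the parietal and 2.22-fold above the zymogenic array. The zymogenic minus pit log2 difference of -1.15 became -0.94 relative to the median shift and -0.63 after quantile normalization, both under 2-fold. The parietal minus zymogenic difference of 0.56 became -0.075 relative to the median shift. The parietal minus pit difference of -0.59 became 0.64 after scaling to BioB and BioC. Its other 2 probe sets were dark, at 2.04 and 3.95 in parietal cells, 1.87 and 0.218 in zymogenic cells, and 1.87 and 2.67 in pit cells.

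Bicarbonate handling showed both patterns at once. Slc4a2, the basolateral exchanger of chloride for bicarbonate, had an intensity of 48.6 in parietal cells, 54.4 in zymogenic cells and 13.4 in pit cells. As with Atp4a, the parietal and zymogenic values were within the probe set scatter of each other (1.12-fold, log2 -0.16), and they were at least 2.09-fold and at least 2.34-fold above the pit array. Relative to the median shift the parietal minus zymogenic difference was -0.80. The parietal minus pit difference was 0.68 after quantile normalization, under 2-fold.

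Car2, the cytosolic carbonic anhydrase that forms bicarbonate and protons, had an intensity of 731 in parietal cells, 15.0 in zymogenic cells and 209.8 in pit cells. It was under the floor on the zymogenic array, which reversed the order of the zymogenic and pit arrays seen for Atp4b. The parietal value was 3.48-fold above the pit array and at least 31.4-fold above the zymogenic array, and the zymogenic value was at least 9.02-fold below the pit array. Surface mucous cells are known to hold this enzyme as well. The pit markers were above the floor on the 2 arrays where Car2 was, with 8 of 8 on the parietal and 8 of 8 on the pit array. Of these, 1 (Muc1) was above it on the zymogenic array as well. The part of pit cells in the Car2 values was not tested.

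Cckbr, the receptor through which gastrin acts on parietal and enterochromaffin-like cells, had an intensity of 22.3 in parietal cells, 24.6 in zymogenic cells and 27.4 in pit cells. These values straddled the floor and were within 1.18-fold of each other, so that no difference was detectable in the deposited values. After scaling to BioB and BioC the parietal minus zymogenic difference was 0.99 and the parietal minus pit difference 0.94. A second probe set read 0.727 in parietal cells, 7.71 in zymogenic cells and 0.435 in pit cells, all under the floor.

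**Figure D3:**
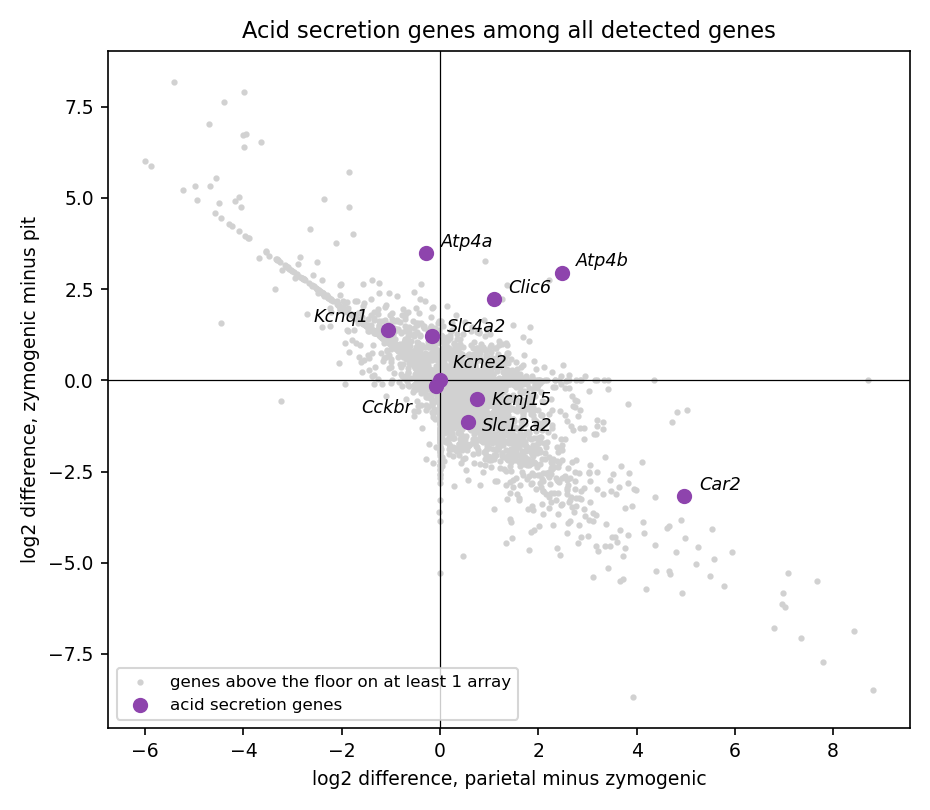
Log2 difference parietal minus zymogenic (horizontal) against zymogenic minus pit (vertical) for the 10 acid secretion genes (purple) and for the 4138 genes above the floor on at least 1 array (grey), from floored intensities of 1 array per lineage. Atp4a, Atp4b, Kcnq1, Clic6 and Slc4a2 lie above 0 on the vertical axis, Car2, Slc12a2, Kcnj15 and Cckbr below it, and Kcne2 at 0 on both. Both axes contain the zymogenic array, so that they are not independent.

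The members were set against each other by the largest of the 3 gaps in log2 difference. Among the pump subunits and Clic6, Atp4a was 1.38 from Clic6 and 2.76 from Atp4b, and Atp4b was 2.11 from Clic6. Kcnq1 and Slc4a2 were 0.89 apart, Kcnj15 and Slc12a2 0.84. Car2 was the farthest of the 10 from Atp4a, at 6.66, and from Atp4b, at 6.13. These gaps come from floored values of 3 arrays, and members near the floor can differ by little on this scale.

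Genes of most similar pattern were sought by the same measure among genes above the floor on the same arrays. For Atp4b, out of 1185 genes, the nearest was Smim38 at 1.47, with intensities of 1534 in parietal cells, 599 in zymogenic cells and 98.7 in pit cells, followed by the ribosomal protein gene Rpl7a at 2.52 and C1qbp at 2.53. Every gene compared was thus over 1 log2 unit from Atp4b on this measure. For Atp4a, out of 310, they were the actin-binding calponin Cnn3 at 0.95, Ifi27 at 1.20 and Tmem223 at 1.34. The gene nearest to Clic6, at 0.165 out of 310, was Car9, a membrane-bound carbonic anhydrase of gastric epithelium, before Hamp2 at 0.72 and the fatty acid oxidation enzyme Acaa2 at 0.76. Those nearest to Car2, out of 797, were Ptgr1 at 0.71, Plac8 at 0.91 and the trefoil factor Tff2 at 0.93, which was listed among both the pit and the mucous neck markers.

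For the other members the nearest gene lay closer. Kcnq1 was 0.059 from Lonp1, a mitochondrial protease, 0.070 from Arrdc1 and 0.115 from Sec11c, a signal peptidase subunit, out of 310. Slc4a2 was nearest to Gga2, at 0.086, Naxe and the tight junction protein cingulin, Cgn, at 0.20. Kcnj15 was nearest to Cnih4, at 0.040, Sctr (the secretin receptor) and Skil, out of 797. Slc12a2 was nearest to the kinase gene Gsk3a, at 0.063, Ints14 and Rtn3, out of 1185. Cckbr was nearest to Slc43a2, at 0.028, Znrd2 and Kdf1, out of 90. Values under the floor count as equal on this measure, so that members near the floor have little room to differ from other genes. In pit cells, for example, Kcnq1 read 3.71 against 16.1 for Lonp1, and Slc4a2 read 13.4 against 2.43 for Gga2.

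Other genes of the acid secretion pathway were then examined as lists. Of 9 genes for signals that start or stop secretion, 3 were above the floor on at least 1 array and 0 were 2-fold apart on any pair. A call was possible for Gnas and Prkaca alone, since Hdc was under 2 times the floor and the rest were under the floor. By pair and direction, the share of all genes called ran from 1.46% to 4.74%. The histamine receptor Hrh2, the muscarinic receptor Chrm3 and the somatostatin receptor Sstr2 were under the floor on every array, with Hrh2 at 11.5 in parietal cells, 2.72 in zymogenic cells and 9.43 in pit cells. Gnas, which codes for the stimulatory G protein alpha subunit, stood at 122 in parietal cells, 83.6 in zymogenic cells and 75.3 in pit cells. Hdc, the enzyme that makes histamine in enterochromaffin-like cells, was listed at 0 in parietal cells and read 40.4 in zymogenic cells and 0.147 in pit cells. Hdc is itself 1 of the 8 endocrine markers, of which 5, Hdc included, were above the floor in zymogenic cells.

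Of 16 further genes for ion and water transport in parietal cells, 13 had a probe set and 4 were above the floor on at least 1 array. Parietal over zymogenic gave 2 higher and 0 lower by at least 2-fold, parietal over pit 1 higher and 0 lower, and zymogenic over pit 1 higher and 2 lower. The shares over all genes were 4.74% for the first of these, 2.73% for parietal over pit, and 2.35% higher and 4.24% lower for zymogenic over pit, and over genes above the floor on at least 1 array they were 20.9%, 12.0%, 10.3% and 18.7%. Car9 had an intensity of 260.2 in parietal cells, 109 in zymogenic cells and 21.2 in pit cells, the same order as Clic6. Atp1b1, the sodium pump's beta subunit and a relative of Atp4b, stood at 306 in parietal cells, 98.2 in zymogenic cells and 214 in pit cells. Unlike Atp4b, it was 2.17-fold lower on the zymogenic than on the pit array. Kcnj16, an inward rectifier relative of Kcnj15, was above the floor on the parietal array alone, at 38.0, against 1.79 in zymogenic cells and 10.9 in pit cells. Slc9a2, a sodium/proton exchanger, read 41.4 in parietal cells, 9.07 in zymogenic cells and 51.6 in pit cells. Slc26a7, a chloride and bicarbonate transporter, stayed under the floor at 20.4 in parietal cells, 4.99 in zymogenic cells and 1.57 in pit cells.

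Of 10 genes for membrane trafficking and the apical cytoskeleton, by which pump-bearing vesicles reach the surface, 7 were above the floor in parietal cells, 2 in zymogenic cells and 7 in pit cells. Parietal over zymogenic gave 4 higher and 0 lower, parietal over pit 0 higher and 2 lower, and zymogenic over pit 0 higher and 5 lower. Over all genes 4.74% were higher on the parietal than on the zymogenic array, 1.46% lower on the parietal than on the pit array and 4.24% lower on the zymogenic than on the pit array, and over genes above the floor on at least 1 array the shares were 20.9%, 6.4% and 18.7%. The median log2 differences were 0.60, -0.16 and -1.03, and with transcript-specific probe sets the first and the last of these were 0. Ezr (ezrin), which links actin to the apical membrane, stood at 142 in parietal cells, 13.2 in zymogenic cells and 171 in pit cells. Lasp1, an actin-binding protein, was at 484 in parietal cells, 68.2 in zymogenic cells and 1072 in pit cells. Rab11a, a GTPase of recycling vesicles, read 67.6 in parietal cells, against 18.5 in zymogenic cells and 34.5 in pit cells. The zymogenic array was the lowest for each of the 7 genes above the floor on at least 1 array, as it was for Car2, Kcnj15 and Slc12a2 and was not for Atp4b, Atp4a or Clic6. Of these 7, Rab11a was highest on the parietal array and the other 6 on the pit array, as was Slc12a2. For Ezr and Rab27b the parietal and pit values were within the probe set scatter of each other (log2 -0.27 and -0.051). After scaling to BioB and BioC the parietal minus pit median of the list was 0.17 in place of -0.16.

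**Figure D4:**
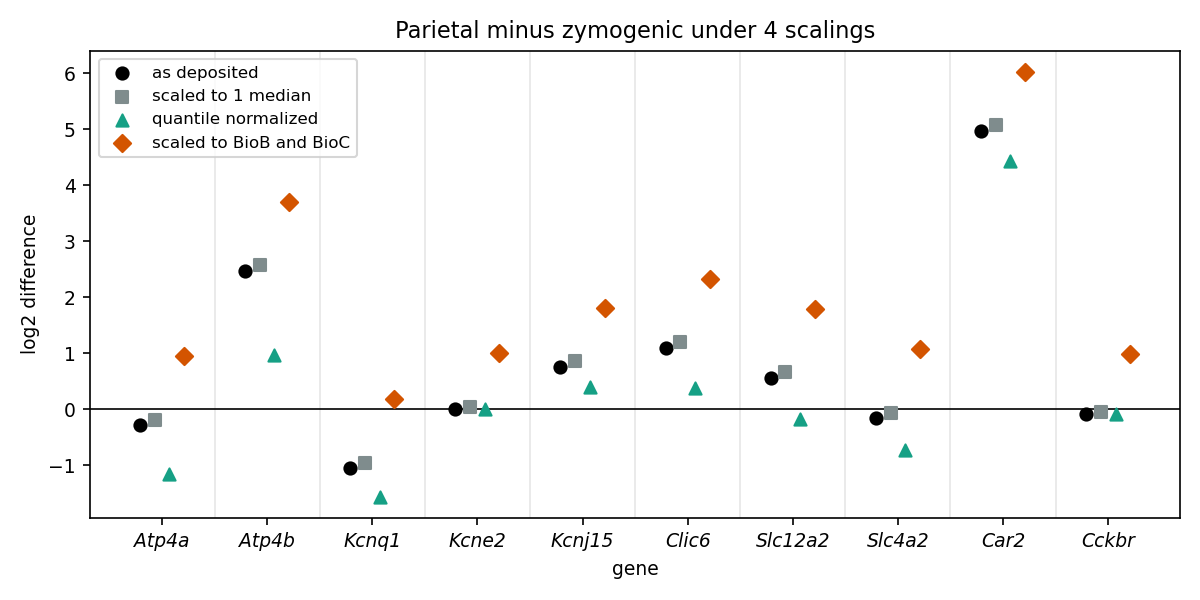
Log2 difference parietal minus zymogenic (vertical axis) of the 10 acid secretion genes from the deposited values and after 3 scalings of the arrays, each with its own floor. Atp4b, Kcnj15, Clic6 and Car2 were above 0 under all 4 settings. Atp4a, Kcnq1, Slc4a2 and Cckbr were below 0 from the deposited values and above it with scaling to BioB and BioC, and Slc12a2 was below 0 after quantile normalization.

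Quantile normalization mattered most for parietal against zymogenic cells, and scaling to BioB and BioC for both comparisons with parietal cells. With the latter, parietal minus pit of Atp4b was 6.66 in place of 5.43. The BioB and BioC controls averaged 303 in parietal cells, 711 in zymogenic cells and 711.5 in pit cells, so that scaling to them raised every parietal value relative to the other arrays. With it, the parietal minus zymogenic difference of Slc4a2 was 1.07 in place of -0.16, and that of Slc12a2 was 1.80 in place of 0.56. After quantile normalization that of Atp4a was -1.16. Differences between the zymogenic and pit arrays mostly moved less than parietal minus zymogenic ones. For Atp4b they were 2.95 under the deposited values, 3.86 after quantile normalization and 2.96 with the controls.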

How the data were processed

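RNA of 3 laser-captured cell lineages of mouse stomach was measured on 1 array each. The values are intensities, 1 per probe set and array, as deposited by the authors. Per the labels' design text, RNA was pooled over mice, amplified with the RiboAmp HS kit and labelled with an Enzo kit. How probes were summarised, corrected for background and scaled is not given in the sources used here. Total signal summed to 919046 in parietal cells, 664513 in zymogenic cells and 742224 in pit cells, and 1 array per lineage limits the precision. The beta-actin controls for the 3' and 5' ends of the transcript were far apart on each array. The 3' control read 619 in parietal cells, 77.0 in zymogenic cells and 332 in pit cells, and the 5' control 23.7, 5.23 and 36.8.

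Of 45101 probe sets, 34958 name 1 gene, 932 name several and were left out, 64 are controls, and 9160 others are unnamed here. Symbols were updated through the gene identifier for 34754 probe sets. For each of 18194 genes the brightest probe set, by its mean intensity on the 3 arrays, was used. Genes were called at 2-fold from floored log2 values, with no test. Named genes were all members with every probe set, list members above the floor, and for each member above the floor on at least 2 arrays the 3 genes with the smallest largest gap in the 3 log2 differences, among genes above the floor on the same arrays. The members and lists were chosen with earlier results of these data known, and the list members named under the floor and the chromosomal neighbours of Kcne2 and Clic6 were named after their values were seen. Alternatives were 3 scalings, 3 treatments of the floor, 2 choices of probe set and 3 thresholds. Tools were numpy 2.4.6, pandas 2.3.3 and matplotlib 3.10.9 under Python 3.11.15, and the calls were tested on simulated data.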

Additional observations from a re-analysis of the deposited data

How the results depend on the processing

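The counts below are of the 10 genes past the threshold. After quantile normalization the parietal array had 1 above both others (3 as deposited) and the zymogenic array 2 (1 as deposited). Parietal over zymogenic gave 1 higher and 2 lower, and 1 was lower on the zymogenic than on the pit array. Scaling to 1 median left 0 above both on the zymogenic array and 0 lower on the parietal than on the zymogenic array, and a floor used as a pseudocount did the same. With BioB and BioC, 5 were above both on the parietal array, 0 above and 2 below both on the zymogenic array, and parietal over zymogenic gave 6 higher and 0 lower. Kcnq1 then had a parietal minus zymogenic log2 difference of 0.179 in place of -1.053. A floor at the 90th percentile gave 2 below both on the zymogenic array. A floor at the 99th percentile, 868, left 1 member and 81 genes above it. Counts there were 1 for parietal above both, parietal over zymogenic and parietal over pit (Atp4b in each), and 0 for the others. With transcript-specific probe sets, which Atp4a and Kcne2 lack, pit below both was 2 and parietal over pit and zymogenic over pit were 3 each. At 4-fold, parietal above both was 1, zymogenic above both 0, parietal lower than zymogenic 0, and parietal over pit and zymogenic over pit 3 each, with 1 lower on the zymogenic than on the pit array. At 8-fold the same counts were 0, 0, 0, 3, 1 and 1, with 1 below both on the pit array and 1 higher on the parietal than on the zymogenic array. At 1.5-fold, 1 was above both on the pit array and 1 lower on the parietal than on the pit array. The trafficking list had parietal minus zymogenic medians of 1.648 with BioB and BioC, 1.403 with the lower floor, 0 with the higher one and 0 with transcript-specific probe sets. Its zymogenic minus pit medians were -1.621, 0 and 0 with those last 3 settings, and 0 with the mean over all probe sets. The medians of the other 3 lists moved by less than the probe set scatter under all 8 settings run for them. With 3 of 9, 4 of 13 and 12 of 32 of their genes above the floor on any array, these medians were 0 as deposited and had little room to move. The cause of these changes was not tested. Signal over the floor limits Kcne2, Cckbr, Kcnj15, Kcnq1 and Slc4a2, whose brightest values were under 3 times the floor.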

Other observations

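Relatives of the members were read beside the members. Of 39 relatives of the acid secretion genes, 32 had a probe set and 12 were above the floor on at least 1 array. Atp12a, the catalytic subunit of the nongastric proton pump and a relative of Atp4a, was at 0.354 in parietal cells, 1.24 in zymogenic cells and 3.34 in pit cells, under the floor on each. Clic1, a chloride intracellular channel protein like Clic6, read 79.2 in parietal cells, 7.08 in zymogenic cells and 111 in pit cells, so that it was low on the zymogenic and not on the pit array. Slc12a7, a potassium and chloride cotransporter, was at 201 in parietal cells, 65.5 in zymogenic cells and 109 in pit cells. Car3, a muscle-type carbonic anhydrase, was above the floor on the pit array alone, at 138, against 3.39 in parietal cells and 8.10 in zymogenic cells. Slc4a4, a sodium bicarbonate cotransporter, read 30.0 in parietal cells, 60.1 in zymogenic cells and 63.4 in pit cells. Cckar, the cholecystokinin receptor that chief cells are known to carry, was above the floor on the zymogenic array alone, at 44.2, against 2.47 in parietal cells and 2.20 in pit cells.

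Kcne2 and Clic6 lie on chromosome 16 of the mouse with 5 annotated protein-coding genes between them, among them Kcne1, a relative of Kcne2. None of the 4 genes between them that had a probe set passed the floor on any array, with Rcan1 the highest at 22.7 in parietal cells, 17.6 in zymogenic cells and 16.9 in pit cells. The next protein-coding gene beyond Clic6, the transcription factor Runx1, read 29.8 in parietal cells, 27.1 in zymogenic cells and 38.8 in pit cells. Mrps6, the next one on the side of Kcne2, read 61.0 in parietal cells, 17.3 in zymogenic cells and 47.1 in pit cells. Runx1 was highest in pit cells, where Clic6 was lowest, and Mrps6 was highest in parietal cells, as Clic6 was. For both neighbours the parietal and pit values differed by less than the probe set scatter.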
